A study of Mus musculus with 22 samples.

Results

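The transcription factors that set and adjust the hepatocyte programme were followed in mouse liver after diclofenac, a non-steroidal anti-inflammatory drug. The genes are Hnf4a, Onecut1, Nr5a2, Foxa1, Foxa2, Foxa3, Cebpa, Cebpb and Cebpd, and a probe set was counted to a gene when the array annotation gave that symbol alone. This gave 9 genes of 18194 and 18 probe sets of 45101. Hnf4a and Nr5a2 have 4 probe sets each, Cebpb, Cebpd and Onecut1 have 2 each, and the others have 1. Levels are given for the probe set with the highest mean of each gene, and the signals of different genes are not compared, since probe sets differ in how strongly they hybridise. The livers came from male C57BL6 mice of 8 weeks. The treated groups had diclofenac sodium at 30 mg/kg by daily intraperitoneal injection and were examined at day 1, day 3 or day 14, with 3, 3 and 5 livers. The control groups had saline by the same schedule, again with 3, 3 and 5 livers. The labels give 5 mice per group and the study's methods 6, so it is not settled how many mice had no array here, and each array is taken as 1 mouse.

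HNF4A is a nuclear receptor that occupies the promoters of a large share of hepatocyte genes, and ONECUT1 (HNF6) and NR5A2 (LRH-1) act beside it on bile acid, lipid and glucose genes. FOXA1, FOXA2 and FOXA3 are forkhead proteins that open chromatin at liver enhancers and that overlap in their targets. C/EBPα maintains metabolic genes of the resting hepatocyte, whereas C/EBPβ and C/EBPδ are known as the family members raised by interleukin-6 and interleukin-1 that drive acute phase genes in the liver. Of 10 hepatocyte marker genes, 9 were on the array (Alb, Apoa1, Ttr and others). None passed the test between diclofenac and saline on any day, where 0.0%, 0.202% and 0.0% of all genes did at days 1, 3 and 14. With so few genes called, this does not show whether the markers changed. The summed signal of the 9 markers at days 1, 3 and 14 was 373700 to 421600, 402800 to 440800 and 561000 to 730800 in diclofenac livers. In saline livers it was 376000 to 414000, 371100 to 412800 and 517400 to 689000. Cholangiocytes also use several of these factors. The sum of 5 of 8 cholangiocyte markers was 474.6 to 492.2 in diclofenac and 319.9 to 504.5 in saline livers at day 1. It was 370.8 to 540 in diclofenac and 211.5 to 410.7 in saline livers at day 3. At day 14 it was 340.8 to 2394 in diclofenac and 249.6 to 335.9 in saline livers. Whole liver was used, so that fewer cells of a type and less RNA per cell cannot be told apart.

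RefSeq promoter windows of GRCm38.p6 were found for 8 of the 9 genes, and Cebpd had no entry. The 250 bases before the start are shown for 4 genes on which the results turn. Diclofenac and saline livers did not overlap at day 3 for Foxa3 and Foxa1, as for 20% of all genes, Hnf4a among them. Onecut1 had day 14 livers that lay apart from those of the earlier days, and the share of all genes that did so was not counted. Cebpb had the lowest unadjusted p of the members at day 14. Capitals mark a motif found on either strand, and positions count from the start, with -1 the base before it. In Foxa3 (chr7:19023540-19023789, minus strand) the capitals are a TATA box, TATAAA, beginning at -36, which 12.4% of 32851 windows of this length hold. In Foxa1 (chr12:57546112-57546361, minus strand, a start within the annotated gene) they are the forkhead motif TGTTTNC, read on the other strand and beginning at -141, which 17.8% of windows hold. In Onecut1 (chr9:74861671-74861920, plus strand) they are an E-box, CACGTG, at -232, held by 6.02% of windows. In Cebpb (chr2:167688665-167688914, plus strand) they are the core of the cyclic AMP response element, TGACG, at -180, -53 and -7, a motif that lies within the full site TGACGTCA and is found in 17.8% of windows, that of Onecut1 (-139) among them.
Foxa3: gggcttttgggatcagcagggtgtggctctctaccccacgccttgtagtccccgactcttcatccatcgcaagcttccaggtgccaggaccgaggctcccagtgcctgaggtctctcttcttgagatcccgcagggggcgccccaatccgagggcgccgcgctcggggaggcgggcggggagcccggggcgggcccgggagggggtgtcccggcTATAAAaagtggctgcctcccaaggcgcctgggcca
Foxa1: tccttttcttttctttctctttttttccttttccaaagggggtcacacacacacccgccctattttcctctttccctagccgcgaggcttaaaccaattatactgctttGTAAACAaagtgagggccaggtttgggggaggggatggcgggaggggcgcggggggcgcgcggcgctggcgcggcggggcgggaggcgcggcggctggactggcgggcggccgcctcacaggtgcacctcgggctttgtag
Onecut1: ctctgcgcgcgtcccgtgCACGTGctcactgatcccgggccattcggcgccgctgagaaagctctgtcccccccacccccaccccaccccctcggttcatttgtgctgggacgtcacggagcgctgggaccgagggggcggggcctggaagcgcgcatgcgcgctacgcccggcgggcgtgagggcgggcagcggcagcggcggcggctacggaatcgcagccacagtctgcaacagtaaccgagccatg
Cebpb: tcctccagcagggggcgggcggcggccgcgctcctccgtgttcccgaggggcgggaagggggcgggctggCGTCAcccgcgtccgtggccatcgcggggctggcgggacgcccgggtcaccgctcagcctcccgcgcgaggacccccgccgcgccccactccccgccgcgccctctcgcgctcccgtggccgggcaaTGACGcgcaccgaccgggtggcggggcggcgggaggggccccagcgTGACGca
The windows of these 4 genes are rich in G and C, with 68.8% in Foxa3, 62% in Foxa1, 71.6% in Onecut1 and 81.6% in Cebpb, against a median of 52.4% over all windows. No window of any of the 8 genes held the STAT motifs TTCNNNGAA or TTCCNGGAA or the palindromic C/EBP motif TTGCGCAA, which 7.02%, 0.913% and 0.164% of all windows hold. The letters TATAAA were also found in Cebpa (-30), and only on the other strand in Nr5a2 (-181) and Foxa2 (-208). The forkhead motif was shared by Foxa1 and Hnf4a (-238). A looser C/EBP motif, which fixes fewer bases than the palindrome, was found in Nr5a2, Foxa2, Hnf4a and Foxa1. It is common, as 36.8% of all windows hold it. A motif for NF-kB, held by 45.8% of all windows, was found in Nr5a2, Foxa2, Hnf4a, Cebpb, Foxa3, Cebpa and Onecut1.

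The arrays had median signals of 75.2 to 89.9, and arrays of the same group correlated at 0.876 to 0.926 over all probe sets. Their 18S control probes differed between days, with log2 signals of 11.7 to 12.4 at day 1, 14.5 to 14.8 at day 3 and 15.1 to 16.2 at day 14, so each treatment group is set against the saline group of its own day. Control probes at the 3' end over those at the 5' end, a sign of RNA quality, gave log2 ratios of 0.559 to 0.602 in diclofenac and 0.562 to 0.621 in saline livers at day 1, 0.762 to 0.945 in diclofenac and 0.737 to 0.825 in saline livers at day 3, and 0.691 to 0.805 in diclofenac and 0.545 to 0.711 in saline livers at day 14, and the part of this ratio in the differences was not tested. The number of arrays limits the precision, and no source says whether the replicates of a group shared a cage or a preparation. A pair of diclofenac livers, day 1 replicate 2 and day 14 replicate 3, lay apart from their groups over the whole array, as they held the highest or the lowest signal of their day for 56.5% of 12884 and 57.5% of 11884 genes, where the other livers did so for 24.1% to 41.9% at days 1 and 3 and for 11% to 21.8% at day 14.

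No member passed the test between diclofenac and saline on any single day (limma with Benjamini-Hochberg adjustment over all genes tested). At day 1, 0 of 9 members passed, with 3 at an unadjusted p under 0.05, on a background of 0.0% of genes called, 1674 of 12884 being at an unadjusted p under 0.05. At day 3, 0 of 9 passed, with 2 at an unadjusted p under 0.05, where 26 genes or 0.202% were called and 1397 of 12884 were at an unadjusted p under 0.05. At day 14, 0 of 9 passed, with 1 at an unadjusted p under 0.05, and no member had groups without overlap, where 3.78% of genes did. Here again 0.0% were called and 1287 of 11884 genes were at an unadjusted p under 0.05. The methods' t-test, with an unadjusted p under 0.05 and a change above 1.5-fold, called 1.46% of genes at day 1, 2.49% at day 3 and 2.38% at day 14, and after Benjamini-Hochberg adjustment 0 on each day. Of the members it called Foxa3 at day 3 alone. The median difference of the members on the log2 scale was -0.18 at day 1, -0.07 at day 3 and 0.09 at day 14, and that of all genes was 0.00, 0.01 and -0.01.

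**Figure D1:**
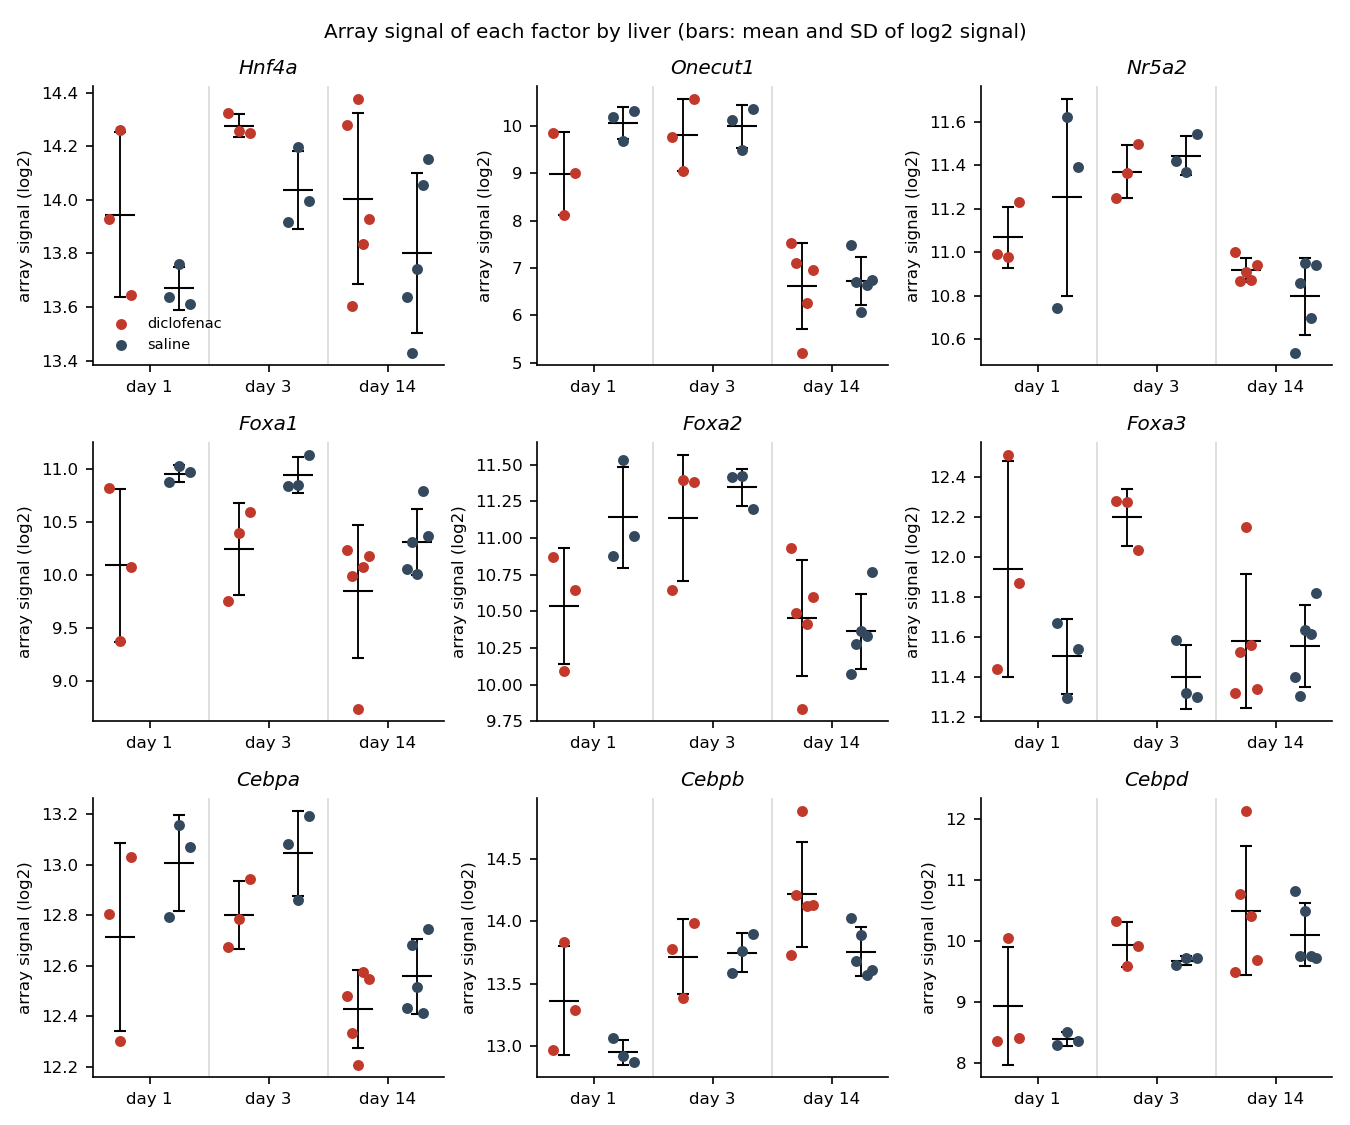
Array signal on a log2 scale of the 9 genes in each liver, with diclofenac (red) left of saline (dark) at days 1, 3 and 14. Points are livers and bars are the mean and SD of the log2 signal (n = 3, 3 and 5). Foxa3 lies above saline in every diclofenac liver at day 3, and Onecut1 is low at day 14 in both treatments.

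**Figure D2:**
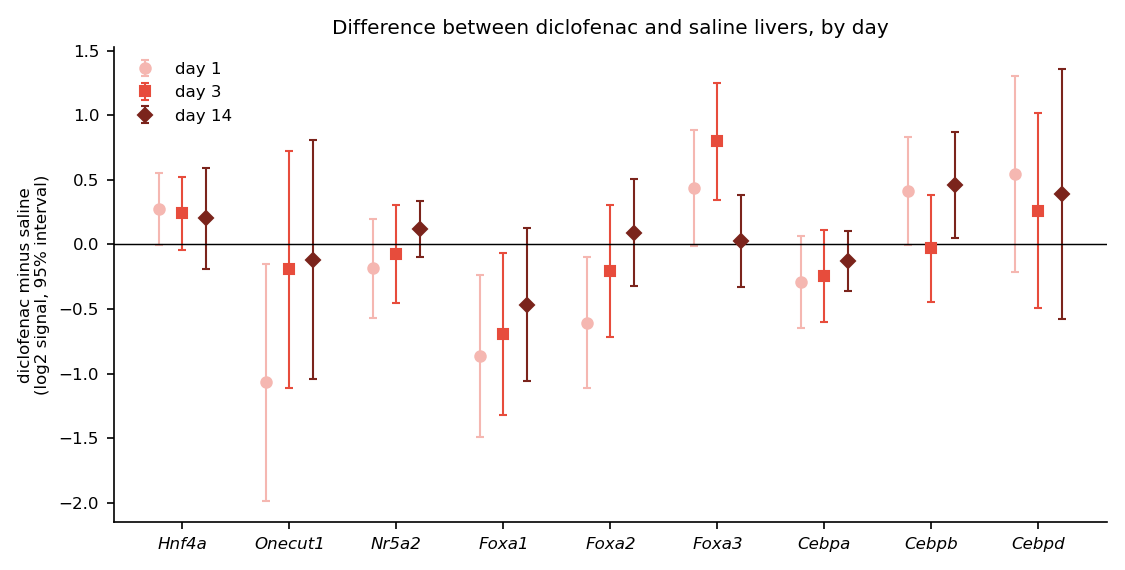
Mean log2 signal of diclofenac livers minus that of saline livers at each day, with 95% intervals from limma before adjustment, for the 9 genes. The interval lies above 0 for Foxa3 at day 3 and for Cebpb at day 14, and below 0 for Foxa1 at days 1 and 3 and for Foxa2 and Onecut1 at day 1.

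Among the forkhead genes Foxa3 had the higher and Foxa1 the lower signals in diclofenac livers at days 1 and 3, without passing the test. Foxa3 lies on chromosome 7 (19013283 to 19023539). At day 3 its signal was 4974, 4959 and 4193 in diclofenac livers, against 3065, 2552 and 2514 in saline livers. All 3 diclofenac livers lay above all 3 saline livers (exact permutation test, two-sided, p = 0.1, the smallest that 3 against 3 allow), which 10.8% of genes also did in that direction. The difference was 1.74-fold, or 0.80 on the log2 scale (standard error 0.21, 95% interval 0.35 to 1.25), with an unadjusted p of 0.0021 and an adjusted p of 0.169 from limma. The adjusted p was 0.0111 when diclofenac day 1 replicate 2, a liver of the other day that shares the estimate of spread, was left out, 0.0115 when day 3 was fitted on its own arrays and 0.0234 with array weights. It was at most 0.271 under the other settings and 0.507 when single arrays were left out, 1 of 12 such fits passing, and the difference itself stayed between 0.74 and 0.89 over all of them. At day 1 Foxa3 had 2779, 5834 and 3734 in diclofenac livers and 3255, 2513 and 2976 in saline livers, and the groups overlapped. At day 14 it had 2556, 2947, 4532, 3011 and 2593 in diclofenac livers and 2695, 2522, 3179, 3135 and 3611 in saline livers, a log2 difference of 0.02 (95% interval -0.33 to 0.38). The highest diclofenac value, in replicate 3, is the only one above the saline range.

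Foxa1, on chromosome 12 (57540628 to 57548029), had 1804, 664 and 1079 in diclofenac livers at day 1, against 1869.7, 2084 and 1999 in saline livers. At day 3 it had 861, 1341 and 1537 in diclofenac livers, against 1827, 1836 and 2241 in saline livers. Every diclofenac liver lay below every saline liver on both days (exact permutation test, two-sided, p = 0.1 each), as 8.1% of genes did in that direction at day 1 and 9.21% at day 3. The log2 differences were -0.86 at day 1 (standard error 0.29, adjusted p = 0.306, limma) and -0.69 at day 3 (standard error 0.29, adjusted p = 0.401, limma). At day 14 the signals were 1207, 1013, 427, 1076 and 1158 in diclofenac livers and 1063, 1271, 1031, 1771 and 1322 in saline livers, with overlap. The day 14 log2 difference was -0.47 (95% interval -1.06 to 0.13), and -0.19 without replicate 3.

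Foxa2 lies on chromosome 2 (148042877 to 148046969), and its signal at day 1 was 1867, 1094 and 1600.5 in diclofenac livers, against 1879, 2957 and 2070.3 in saline livers. The groups did not overlap, as for 8.1% of genes in that direction, and the highest diclofenac and the lowest saline value almost met. The log2 difference was -0.60 (standard error 0.24, adjusted p = 0.338, limma) at day 1, and -0.21 and 0.09 at days 3 and 14. At day 3 only replicate 1 of the diclofenac group was low, with 1598 against 2688 and 2665 in its group and 2735, 2739.6 and 2349 in saline livers. At day 14 the signal was 1949, 1438, 914, 1365 and 1551 in diclofenac livers and 1077, 1238, 1316, 1291 and 1745 in saline livers, with both the lowest and the highest value in the diclofenac group. The effects of day 1 and day 3 were also averaged, a contrast first run by an earlier analysis of these data after its results had been seen. In it 0.675% of genes were called and 0 of the 9 members, 5 of which had an unadjusted p under 0.05, as 2215 of 12884 genes (17.2%) did. Foxa3 had a mean log2 difference of 0.62 (standard error 0.15, adjusted p = 0.0731, limma), Foxa1 of -0.78 (standard error 0.20, adjusted p = 0.0973) and Foxa2 of -0.41 (adjusted p = 0.238). Without diclofenac day 1 replicate 1, Foxa3 and Foxa1 both passed (adjusted p = 0.0143 and 0.0149, limma), and without replicate 2 of that group Foxa3 passed with 0.48 (adjusted p = 0.0402).

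The C/EBP genes with an inducible character were higher in some diclofenac livers and not in others. Cebpb, on chromosome 2 (167688915 to 167690432), had 8028, 14598 and 9989 in diclofenac livers at day 1, against 8546, 7743 and 7484 in saline livers. At day 3 it had 14032, 10725 and 16232 in diclofenac livers and 12291, 13862 and 15239 in saline livers, where the diclofenac livers lie on both sides of the saline range. At day 14 it had 13552, 18927, 30279.8, 17818 and 17957 in diclofenac livers and 16687, 13114, 15182, 12169.6 and 12505 in saline livers. Of the 5 diclofenac livers, 4 lay above the saline range and 1 within it. The log2 differences were 0.41, -0.03 and 0.46 at days 1, 3 and 14, and that of day 14 (1.38-fold, standard error 0.19, unadjusted p = 0.0321) did not pass the adjustment (adjusted p = 0.420, limma). It was 0.29 without replicate 3, and 0.43 on the gene's other probe set.

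Cebpd lies on chromosome 16 (15887286 to 15889545) and has 1 other, dim probe set. At day 1 its signal was 329, 1064 and 339 in diclofenac livers, against 315, 366 and 331 in saline livers. A single liver, replicate 2, carries the day 1 log2 difference of 0.55 (standard error 0.35), which is -0.01 without it. At day 3 the signal was 1276, 766 and 967 in diclofenac livers and 776, 839.8 and 843 in saline livers. At day 14 it was 723, 1739.9, 4476, 1355 and 821 in diclofenac livers and 1795, 858, 1440.0, 863 and 841 in saline livers. Again a single liver, replicate 3, lay above the saline range, and the log2 difference of 0.39 (standard error 0.44, adjusted p = 0.762, limma) is -0.02 without it.

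Cebpa, on chromosome 7 (35119293 to 35121928), had a mean signal below that of saline on each day, with overlap each time. It was 6863 ± 1678 in diclofenac livers and 8277 ± 1055 in saline livers at day 1 (SD, n = 3 each), and 7162 ± 678 in diclofenac livers and 8492 ± 977 in saline livers at day 3 (SD, n = 3 each). At day 14 it was 5544 ± 578 in diclofenac livers and 6060.3 ± 636 in saline livers (SD, n = 5 each). The log2 differences of -0.29, -0.24 and -0.13 had adjusted p of 0.476, 0.631 and 0.676 (limma), and their mean over days 1 and 3 was -0.27 (adjusted p = 0.265).

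Hnf4a (chromosome 2, 163506811 to 163572907) had a higher mean in diclofenac livers on each day, by a small amount. At day 3 its signal was 20530.3, 19566 and 19473 in diclofenac livers, against 15473, 18783 and 16329.5 in saline livers, without overlap (exact permutation test, two-sided, p = 0.1), as for 10.8% of genes in that direction. At day 1 it was 15589, 19623 and 12814 in diclofenac livers and 12728, 13891 and 12522 in saline livers. At day 14 it was 19872, 12450.3, 21277, 14625 and 15578 in diclofenac livers and 12728, 11034, 13689.9, 17037 and 18202 in saline livers. The log2 differences of 0.27, 0.24 and 0.20 had adjusted p of 0.396, 0.524 and 0.694 (limma). Its 4 probe sets gave differences of -0.03 to 0.50 at day 1, 0.17 to 0.34 at day 3 and -0.01 to 0.20 at day 14.

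Onecut1 (chromosome 9, 74861921 to 74889648) had 923, 277 and 517 in diclofenac livers at day 1, against 1163, 820.2 and 1276 in saline livers. At day 3 it had 873, 532 and 1521 in diclofenac livers and 1115, 717 and 1317 in saline livers. The groups overlapped on both days, and the log2 differences were -1.07 at day 1 (standard error 0.42, adjusted p = 0.338, limma) and -0.19 at day 3. Its other probe set gave -1.20 and -0.26. At day 14 the signal was 185, 138, 37.1, 77 and 124 in diclofenac livers and 179.7, 105, 67.2, 99.8 and 108 in saline livers, near the median of the arrays, which it exceeded in 3 of 5 diclofenac and 4 of 5 saline livers. A difference between treatments at that level would be hard to detect.

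Nr5a2, on chromosome 1 (136842562 to 136960448), overlapped between treatments on each day on the probe set kept. Its mean signal was 2154 ± 217 in diclofenac livers and 2517 ± 730.2 in saline livers at day 1, 2655 ± 227 in diclofenac livers and 2789.8 ± 174 in saline livers at day 3 (SD, n = 3 each), and 1936 ± 74.3 in diclofenac livers and 1791 ± 213 in saline livers at day 14 (SD, n = 5 each). The log2 differences of -0.18, -0.07 and 0.12 had 95% intervals of -0.57 to 0.20, -0.46 to 0.31 and -0.10 to 0.34. On another of its probe sets all diclofenac livers lay below all saline livers at day 3, with a log2 difference of -0.37 (adjusted p = 0.367, limma). On the kept probe sets 9.21% of genes did so.

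The same diclofenac livers held the extremes of most members. Replicate 2 of the day 1 diclofenac group had the highest signal of its day for Cebpb, Cebpd, Hnf4a and Foxa3 and the lowest for Cebpa, Foxa1, Foxa2 and Onecut1. Replicate 3 of the day 14 diclofenac group had the highest signal of its day for the same 4 genes and the lowest for the same 4, so that 8 of 9 members were extreme in each of these livers. Against the saline mean of the day, Cebpd was 1.66 higher on the log2 scale in the day 1 liver and 2.02 higher in the day 14 liver, and Foxa1 was at -1.58 in the day 1 liver and -1.57 in the day 14 liver. Onecut1 was at -1.95 in the day 1 liver and -1.52 in the day 14 liver, and Cebpb was 0.88 and 1.13 higher in the same order. Of all genes the day 1 liver was highest for 27.6% and lowest for 29%, and the day 14 liver highest for 27.9% and lowest for 29.7%. Replicate 1 of the day 3 diclofenac group came next, with the extremes of 7 of 9 members, highest for Cebpd, Hnf4a and Foxa3 and lowest for Cebpa, Foxa1, Foxa2 and Nr5a2. It was extreme for 41.9% of all genes. Without the day 1 liver the day 1 differences on the log2 scale were -0.51 for Foxa1, -0.38 for Foxa2, -0.63 for Onecut1, 0.18 for Cebpb, 0.15 for Foxa3, 0.12 for Hnf4a and -0.09 for Cebpa. Without the day 14 liver the day 14 differences were -0.19 for Foxa1, 0.29 for Cebpb, -0.12 for Foxa3, 0.11 for Hnf4a, 0.23 for Onecut1, 0.25 for Foxa2 and -0.07 for Cebpa, and no member passed the test on either day.

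**Figure D3:**
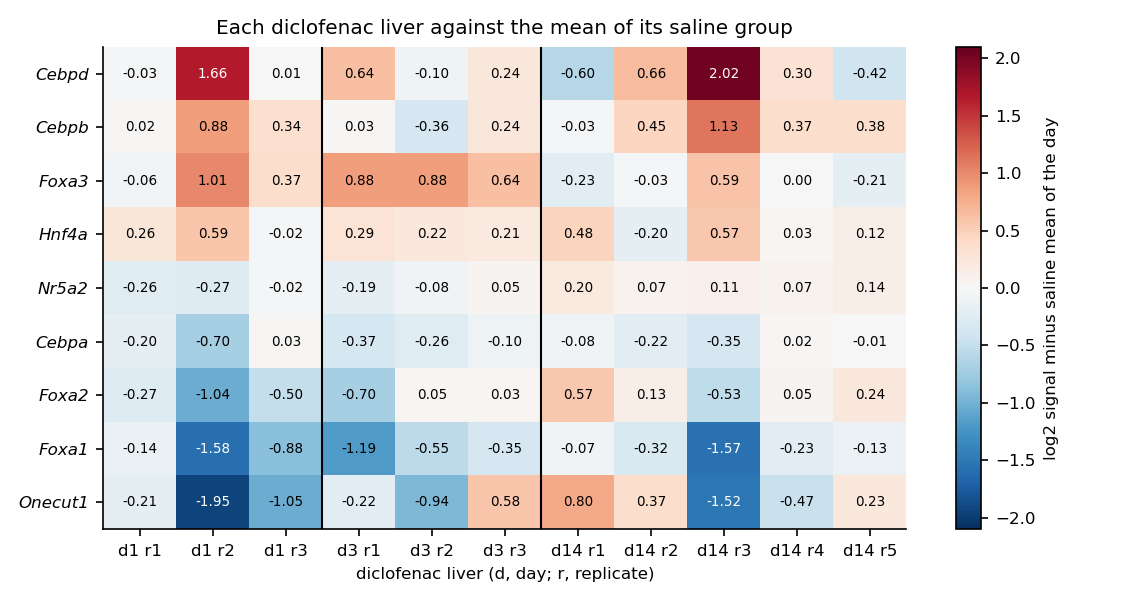
Log2 signal of each diclofenac liver minus the mean of the saline livers of its day, for the 9 genes (rows) and 11 diclofenac livers (columns, d for day and r for replicate). Red is higher and blue is lower than the saline mean. The day 1 replicate 2 and day 14 replicate 3 columns are red for Cebpd, Cebpb, Foxa3 and Hnf4a and blue for Cebpa, Foxa2, Foxa1 and Onecut1.

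Neutrophil and monocyte marker sums were highest in day 1 replicate 2 and day 14 replicate 3. In every diclofenac liver they lay above the saline range of the day. The summed signal of 10 of 12 neutrophil markers was 26100 in day 1 replicate 2 and 24730 in day 14 replicate 3, 1835 and 2064 in the other diclofenac livers of day 1, 2142 to 3761 in those of day 3 and 819 to 2956 in the other 4 of day 14. In saline livers it was 734 to 1303 at day 1, 462 to 754 at day 3 and 371 to 654 at day 14. None of these markers was at 0, since every deposited signal is above 0. None passed the test on a single day (3, 4 and 4 at an unadjusted p under 0.05 at days 1, 3 and 14), and 2 of 8 tested (Prtn3 and S100a9) were called higher in the mean effect of days 1 and 3. The sum of 4 of 5 monocyte markers was 1152 in day 1 replicate 2 and 2318 in day 14 replicate 3. It was 277 and 293 in the other diclofenac livers of day 1 and 233 to 1102 in those of day 14. In saline livers it was 208 to 256.5 at day 1 and 126 to 152 at day 14. At day 3 it was 452.3 to 691.8 in diclofenac and 190.8 to 272.1 in saline livers. The T and NK cell sum at day 14 was 148 to 363 in diclofenac and 170.5 to 341 in saline livers, and the B cell sum 77.4 to 212 in diclofenac and 74.2 to 199.8 in saline livers. The part of these cells in the signal of Cebpb and Cebpd, which leucocytes also express, was not tested. In day 14 replicate 3 the cholangiocyte sum was 2394, against 341 to 500.4 in the other diclofenac livers of that day. In the same liver the Kupffer cell and macrophage sum (11 of 11 markers) was 41850.0, against 10130 to 15230. Its hepatocyte sum was 668200, within the range of the other diclofenac livers (561000 to 730800). Saline livers of day 14 had a Kupffer cell and macrophage sum of 5935 to 15280. That sum was 36000 to 51790 in diclofenac and 21410 to 34440 in saline livers at day 1. At day 3 it was 29950 to 44120 in diclofenac and 26430 to 28660 in saline livers.

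The members were also compared with each other within groups, over 36 pairs, on the log2 signal minus the mean of the group, with livers permuted within their groups (two-sided, 100000 permutations, adjusted over the pairs). This comparison was added after the data had been seen. Pairs of other genes were not compared in this way, so the values do not show a relation particular to these factors. Cebpb and Cebpd had r = 0.88 and rho = 0.82 over 22 livers (adjusted permutation p = 0.00594 and 0.00900). Within days r was 0.90, 0.60 and 0.95 at days 1, 3 and 14, it was 0.76 without the 2 livers furthest from the median of Cebpb, and 0.69 over the 20 livers without day 1 replicate 2 and day 14 replicate 3. Foxa1 ran against Cebpd, with r = -0.85 and rho = -0.67 (adjusted permutation p = 0.00594 and 0.0375), -0.85, -0.67 and -0.90 within days 1, 3 and 14, and -0.55 without the same pair of livers. Foxa2 ran with Foxa1 (r = 0.76 and rho = 0.63, adjusted permutation p = 0.0182 and 0.0494, r = 0.54 without the pair). Cebpa and Nr5a2 had r = 0.63 and rho = 0.73 (adjusted permutation p = 0.00756 and 0.0281), and r = 0.77 without the pair. Foxa1 and Foxa3 had r = -0.77 (rho = -0.62, adjusted permutation p = 0.0287 and 0.0516), and r = -0.38 without the pair, so that the relation rests in large part on those livers. Further pairs had an adjusted permutation p of r under 0.05. They were Cebpd with Foxa2 (r = -0.76) and Cebpa (-0.64), Cebpb with Foxa1 (-0.78) and Foxa2 (-0.75), Cebpa with Foxa2 (0.64), and Foxa3 with Onecut1 (-0.71). Without the pair of livers r was -0.54, -0.31, -0.40, -0.51, 0.42 and -0.39 in the same order. On ranks only Cebpd with Foxa2 and Cebpb with Foxa2 stayed under 0.05 (adjusted permutation p of rho = 0.0375 each).

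**Figure D4:**
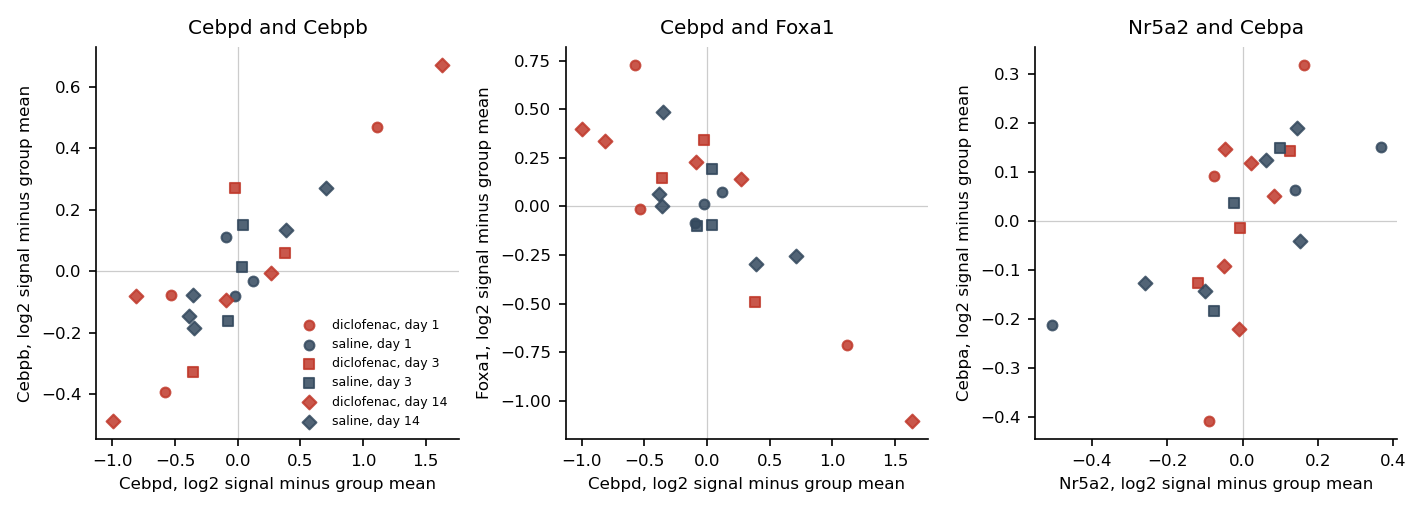
Log2 signal minus the mean of its own group for 3 pairs of genes, with 1 point per liver (red diclofenac, dark saline, and circles, squares and diamonds for days 1, 3 and 14). Cebpb increases with Cebpd (r = 0.88), Foxa1 decreases with Cebpd (r = -0.85), and Cebpa increases with Nr5a2 (r = 0.63), each over 22 livers. The points furthest to the right in the plots against Cebpd are diclofenac livers of day 14 and day 1.

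Several members differed between days. The day 14 arrays were set against those of days 1 and 3 within each treatment in a model of all 22 arrays, a comparison added after the data had been seen. In diclofenac livers 27.3% of 13340 genes were called and 5 of 9 members, and in saline livers 28.4% and 5 of 9. The age of the mice, the number of injections and the processing of the arrays all go with the day and cannot be told apart. Onecut1 had 37.1 to 185 at day 14 and 277 to 1521 at days 1 and 3 in diclofenac livers. In saline livers it was 67.2 to 179.7 at day 14 and 717 to 1317 at days 1 and 3. Since day 14 signals near the array median may be background, the size is given as a bound, with each of them raised to the median of its own array where it lay below it, as added after the data had been seen. Onecut1 was at least 5.68-fold lower at day 14 in diclofenac livers (adjusted p of the measured values 1.99e-05, limma) and at least 9.42-fold lower in saline livers (adjusted p = 2.40e-06, limma). No day 14 liver reached the range of the earlier days, and the share of all genes for which this held was not counted. On its other probe set Onecut1 was at least 3.77-fold lower in diclofenac livers and 6.55-fold lower in saline livers, both past the test.

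Foxa2, Nr5a2 and Cebpa were lower at day 14 in saline livers. Cell type markers differed over the same days, since 10 of 11 Kupffer cell and macrophage markers were called lower in either treatment (median -1.39 in diclofenac and -1.56 in saline livers) and 8 of 9 hepatocyte markers higher (median 0.55 in diclofenac and 0.58 in saline livers), and their part in the members' differences was not tested. Foxa2 fell by 0.88 (adjusted p = 0.00147), Nr5a2 by 0.55 (adjusted p = 0.00143) and Cebpa by 0.47 (adjusted p = 0.00490, all limma). In diclofenac livers Cebpa fell by 0.33 (adjusted p = 0.0427, limma), Nr5a2 and Foxa2 had differences of -0.30 and -0.38 that did not pass (adjusted p = 0.0641 and 0.143), and Foxa3 fell by 0.49 (adjusted p = 0.0315, limma). Cebpd rose by 1.06 in diclofenac livers (adjusted p = 0.0420, limma) and by 1.07 in saline livers (adjusted p = 0.0383, limma), and Cebpb rose by 0.67 in diclofenac livers (adjusted p = 0.00612, limma) and had 0.41 in saline livers (adjusted p = 0.0833). The contrast averages days 1 and 3, which differed for both genes. On the kept probe sets saline means at days 1, 3 and 14 were 337, 820 and 1160 for Cebpd and 7924, 13797 and 13931 for Cebpb. Saline Cebpb at day 14 was thus near its day 3 level. In diclofenac livers the Cebpb means were 10872, 13663 and 19707. In saline livers the call of Cebpb depends on the processing, as its other probe set gave 1.13 (adjusted p = 0.000493, limma), the mean of its probe sets 0.77 (0.00552), and quantile normalization and array weights 0.43 and 0.42 (0.0454 and 0.00685). The calls of Cebpd, and those of Cebpa and Foxa3 in diclofenac livers, are lost without some single arrays. Those of Onecut1, Foxa2, Nr5a2 and Cebpa in saline livers and of Onecut1 and Cebpb in diclofenac livers held under each array left out. On the other 2 probe sets of Nr5a2 tested, the saline difference was smaller, at -0.29 and -0.26 (adjusted p = 0.158 and 0.0384, limma). The other probe set of Cebpd gave 0.83 in saline and 0.55 in diclofenac livers and did not pass (adjusted p = 0.135 and 0.341, limma). The probe sets of Hnf4a disagreed, as the kept one gave -0.11 in diclofenac livers and -0.05 in saline livers and the other 3 gave 0.06 to 1.14 in diclofenac livers and 0.45 to 1.28 in saline livers, 2 of the 3 passing in each treatment. The difference of the day 14 effect and the mean effect of days 1 and 3 passed for 0.0225% of genes and for 0 of 9 members (limma, 1 member and 861 genes at an unadjusted p under 0.05), and that of the day 3 and day 1 effects for 0.0% of genes and 0 of 9 members (0 members and 694 genes at an unadjusted p under 0.05).

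**Figure D5:**
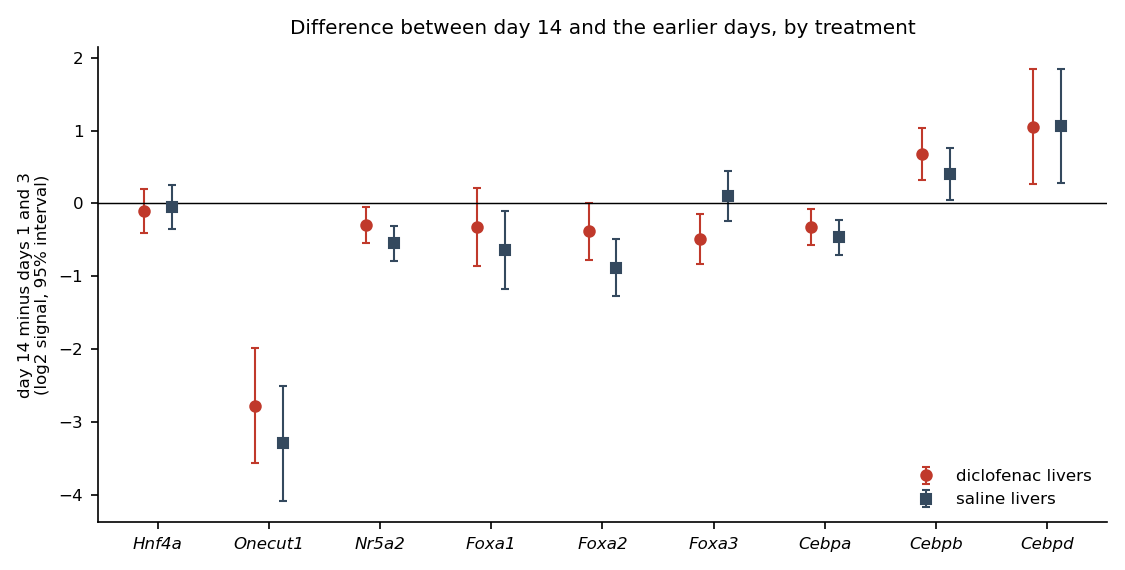
Mean log2 signal at day 14 minus that of days 1 and 3, for diclofenac livers (red) and saline livers (dark), with 95% intervals from limma before adjustment. Onecut1 lies at -2.78 in diclofenac livers and -3.29 in saline livers, values measured near the array median, and Cebpb and Cebpd lie above 0 in both.

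Between the saline livers of days 3 and 1, 0.217% of genes and 0 of 9 members were called, with 3 members and 1337 of 12884 genes (10.4%) at an unadjusted p under 0.05. Cebpb had 12291, 13862 and 15239 at day 3 and 8546, 7743 and 7484 at day 1, a log2 difference of 0.80 (adjusted p = 0.126, limma), and Cebpd had 776, 839.8 and 843 at day 3 and 315, 366 and 331 at day 1, a difference of 1.28 (adjusted p = 0.187, limma). No saline liver of day 3 lay within the day 1 range for either gene, nor for the ratio of 3' over 5' control probes, whose part was not tested. The share of all genes without overlap was not counted for the saline days. Between treatments, with groups of the same size, it was 16.3% at day 1 and 20% at day 3. Cebpb and Cebpd passed when diclofenac day 1 replicate 2, which is not part of the comparison of saline days but shares the estimate of spread, was left out (adjusted p = 0.0239 and 0.00477, limma). Their other probe sets gave 0.60 for Cebpb and 0.25 for Cebpd between saline days (adjusted p = 0.368 and 0.932, limma).

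Genes bound by these factors were counted by lists, which were chosen with results of these data known and are no independent evidence. Of 15 acute phase genes with C/EBP sites, 0 passed at day 1, 4 at day 3 and 0 at day 14, with 11, 14 and 14 at an unadjusted p under 0.05 and median log2 differences of 0.63, 0.61 and 1.26, where the medians of all genes were 0.00, 0.01 and -0.01. At day 3 Saa2 rose by 4.85, Lcn2 by 4.21, Orm2 by 3.23 and Saa1 by 2.61 on the log2 scale (adjusted p = 0.00787, 0.0353, 0.0389 and 0.0215, limma). Saa1 and Saa2 encode serum amyloid A proteins, Orm2 an orosomucoid and Lcn2 the iron-siderophore binding lipocalin 2. Without diclofenac day 3 replicate 1, 0 genes of all tested were called at day 3, and without diclofenac day 1 replicate 2, 178 were. The summed signal of the list was 516000 to 622800 in diclofenac livers and 316400 to 335500 in saline livers at day 3, with no overlap. At day 14 it was 1578000 in replicate 3 and 684000 to 986100 in the other diclofenac livers, against 345800 to 572300 in saline livers.

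Of 14 genes of interleukin-6 and interleukin-1 signalling upstream of C/EBPs, 0 passed at days 1 and 14 (8 and 4 at an unadjusted p under 0.05) and 1 at day 3, Bcl3, a nuclear partner of NF-kB, which rose by 1.74 (adjusted p = 0.00735, limma). In the mean effect of days 1 and 3, Il1r1 rose by 1.43, Bcl3 by 0.98 and Stat3, the transcription factor downstream of interleukin-6, by 0.94 (adjusted p = 0.0291, 0.00900 and 0.0131, limma). Of 12 C/EBP-bound metabolic genes, 17 HNF4A-bound genes, 9 FOXA-bound genes and 7 NR5A2-bound genes tested, 0 passed on any of the 3 days (limma), with medians of -0.04, -0.33 and -0.42 for the C/EBP list and -0.01, 0.14 and 0.04 for the HNF4A list at days 1, 3 and 14. At an unadjusted p under 0.05 there were 2, 3 and 2 genes in the C/EBP list and 2, 2 and 4 in the HNF4A list, 1, 0 and 0 in the FOXA list and 0 in the NR5A2 list on each day. G6pc, the glucose-6-phosphatase of gluconeogenesis, had the lowest value of both lists at day 3, with -1.33 (adjusted p = 0.231, limma). The summed signal of the NR5A2-bound genes was 16720 in day 14 replicate 3, against 38490 to 44540 in the other diclofenac livers and 47560 to 55700 in saline livers of that day.

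For other liver-enriched transcription factors the share at an unadjusted p under 0.05 exceeded that of all genes at day 3, though not at days 1 and 14. Of 26 tested at days 1 and 3 and 25 at day 14, 0 passed on any single day, with 1, 10 and 1 at an unadjusted p under 0.05 and medians of -0.09, -0.18 and -0.09. Hhex, a homeobox factor of liver development, was the 1 gene called in the mean effect of days 1 and 3, where it fell by 0.62 (adjusted p = 0.0421, limma). Of 11 C/EBP relatives and partners, 0 passed on any single day, with 1, 2 and 1 at an unadjusted p under 0.05. Among them Dbp, a PAR-bZIP factor whose transcript follows the circadian clock in mouse liver, had -1.31 at day 1 (adjusted p = 0.418, limma) and fell by 4.40 between day 14 and the earlier days in saline livers (adjusted p = 2.50e-07, limma). The time of day at which the livers were taken was not tested.

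The genes most like a member in pattern were found by Pearson correlation over the 22 livers after the mean of each day was removed, among 13339 genes, as a description in which the livers that stood apart carry much weight. Cebpb was most like Hmgn1 (0.917), Mff (0.902) and Srp9 (0.895), and Cebpd most like Phf20l1 (0.928), Trappc11 (0.924) and Map1lc3b (0.913). Foxa1 was most like Cmas (0.922), Mettl26 (0.921) and Ndufs7 (0.920), and Foxa3 most like Tsr1 (0.895), Nrg4 (0.873) and Rps6ka3 (0.856). Hnf4a was most like Serpinc1 (0.884) and F2 (0.876), which encode antithrombin and prothrombin, and Zmpste24 (0.869). Onecut1 was most like Epb41l4b (0.809), Prss53 (0.804) and Sdr9c7 (0.804).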

How the data were processed

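The authors hybridised liver RNA of 22 mice to Affymetrix Mouse 430 2.0 arrays and deposited MAS5 signal intensities on a linear scale, scaled to a trimmed mean of 500.0 per array (2% left out at either end). Scaling hides a change of total RNA, and no detection calls were used. Of 45101 probe sets, 34958 name 1 gene, 932 several and 9211 none; only the first were used. Here the probe set with the highest mean log2 signal stood for each gene, and log2 signals, with no pseudocount, were fitted in limma 3.58.1 (R 4.3.3, lmFit and eBayes with a trend) for the 12 arrays of days 1 and 3 and the 10 of day 14 (all 22 for day 14 against earlier days), on genes above the median of their own array in at least 3 arrays. Tests are two-sided with a Benjamini-Hochberg threshold of 0.05. Exact permutation tests ran in scipy 1.17.1 (Python 3.11.15), other permutations in numpy 2.4.6, tables in pandas 2.3.3, and the fit was tested on simulated data. The members and the lists were chosen with earlier results of these data known.

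All members are named, with list genes past the test (up to 4 per list and comparison) or otherwise the largest rise or fall, and the 3 most similar genes of some members. Alternatives were no filter, quantile normalization, centring, a pseudocount, other uses of probe sets, other sets of arrays, array weights, a replicate block, the methods' t-test and each array left out. P-values from limma set a difference against the spread between these livers, pooled over the groups of a model.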

Additional observations from a re-analysis of the deposited data

Results flagged for a closer look

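In the day 14 groups of 5 livers, 18 sets of values (9 genes in each treatment) were tested for a liver far from the others by Dixon's rule, which chance meets in about 1 of 20 groups, and 2 met it. Foxa1 in diclofenac day 14 replicate 3 had a signal of 427, where the other 4 diclofenac livers had 1013 to 1207. Foxa3 in the same liver had 4532, where the others had 2556 to 3011. The groups of 3 livers at days 1 and 3 were not tested.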

How the results depend on the processing

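The number of members past the test stayed at 0 at day 1 and at day 14 under every alternative run. At day 3 it was 1 (Foxa3) with each day on its own arrays, with array weights, with the methods' t-test and without both livers that stood apart, and 0 to 1 when arrays were left out singly. In the mean effect of days 1 and 3 it was 1 with array weights and without both livers, and 0 to 2 when arrays were left out. Between saline livers of days 3 and 1 it was 2 in these same settings and 0 to 2. For day 14 against the earlier days it was 3 in diclofenac livers with no filter and 2 to 6 when arrays were left out, and 4 to 7 in saline livers. Called genes of all tested ranged, when arrays were left out, over 0 to 5 at day 1, 0 to 178 at day 3, 0 to 123 at day 14 (123 without diclofenac replicate 3), 16 to 326 for the mean effect and 0 to 120 between saline days.

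Of 591 recomputed treatment differences of members, 24 turned sign. Without both livers Cebpd had -0.011 at day 1 and -0.016 at day 14, Foxa3 -0.12 and Onecut1 0.23 at day 14. Array weights gave Foxa3 -0.045 and Onecut1 0.13 at day 14. On other probe sets Hnf4a had -0.034 at day 1, -0.012 at day 14 and -0.096 between saline days, 0.64, 0.45 and 1.28 for day 14 against earlier days in saline livers and 0.45, 0.062 and 1.14 in diclofenac livers. Nr5a2 had 0.065, 0.030 and -0.080 at days 1, 3 and 14, and 0.19 for day 14 against earlier days in diclofenac livers. The mean of probe sets gave Nr5a2 0.068 at day 3, and Hnf4a 0.39 in diclofenac and 0.58 in saline livers for day 14 against earlier days. Median centring gave Foxa3 -0.0028 in saline livers for that contrast. With single arrays left out, signs turned within these ranges: Cebpb -0.16 to 0.14, Foxa2 -0.33 to 0.041 and Onecut1 -0.58 to 0.18 at day 3, Cebpd -0.011 to 0.84 at day 1, Cebpd -0.016 to 0.64, Foxa2 -0.028 to 0.25, Foxa3 -0.12 to 0.091 and Onecut1 -0.35 to 0.23 at day 14, and Hnf4a -0.14 to 0.043 for day 14 against earlier days in saline livers. The causes were not tested.

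Of 11 pairs of same-numbered livers, 1 correlated above 0.1 after the mean of each group was removed. Livers of different numbers were not compared in this way, so the values do not settle whether replicate numbers pair the livers. With the replicate block 0 members were called at days 1, 3 and 14 and in the mean effect, and 0, 6, 1 and 24 genes.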
